A study of Homo sapiens with 2 samples.

Results

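Peaks of PQBP1 on RNAs that encode the extracellular matrix and the proteins that attach cells to it or to each other were described in SpyCLIP-seq data from HEY cells, a human ovarian cancer line. The genes were matched by symbol alone, in families chosen with earlier results of these data known. They were the laminin chains, the collagens, the integrin chains, the thrombospondins, the fibrillins and fibulins, the cadherin, protocadherin, FAT and CELSR genes, the ADAMTS proteases, the NOTCH receptors, and FN1, HSPG2, AGRN and CD44. Of the 1489 peaks on 718 genes in the list, 109 peaks lay on 19 of these genes. PQBP1 is a nuclear splicing factor, and SpyCLIP-seq crosslinks a tagged protein to the RNA it touches with ultraviolet light, pulls it down and sequences the RNA left on it. Both libraries came from HEY cells made to overexpress PQBP1 with FLAG and Spy tags, crosslinked with 400 mJ per cm2 of ultraviolet light, and nuclei were isolated before lysis. The Input library had no antibody and the IP library was pulled down with an antibody to FLAG. There was 1 library of each, so no difference was tested. The values below are those of the IP library. Input values were not analysed here, and the amount of each RNA in the nuclei was not measured. Because a tagged and overexpressed protein was mapped, binding by the protein at its own level was not observed.

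The extracellular matrix is the protein meshwork outside cells. Laminins are cross-shaped trimers of an alpha, a beta and a gamma chain that form the sheet called the basement membrane, agrin and perlecan are proteoglycans of that sheet, and fibrillar collagens and fibronectin build the looser matrix beyond it. Integrins are receptors of an alpha and a beta chain that span the cell membrane and hold the matrix, and cadherins hold neighbouring cells together. Most of these proteins are long chains of repeated modules encoded by genes with many short exons, so each of their RNAs needs a large number of splicing steps.

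The 19 genes with a peak came from all of the families but the cadherin superfamily. Here the ADAMTS proteases were counted with the thrombospondins, and the fibulins with the fibrillins. Of 229 protein-coding genes that the symbols match in the RefSeq annotation, 19 (8.30%, Wilson 95% interval 5.38 to 12.6) had a peak, beside 652 of 20056 (3.25%, 3.01 to 3.51) of all protein-coding genes. The families were chosen with earlier results of these data known, so these shares are not like for like. The study's own set of bound genes is larger than the one this list names, so these shares and the genes without a peak hold for the list alone. Laminins had 4 of 12 genes with a peak (13.8 to 60.9%), collagens 6 of 44 (6.40 to 26.7%) and integrins 3 of 24 (4.34 to 31.0%), and FN1, HSPG2 and AGRN had one while CD44 did not. Of the 102 genes matched as cadherin, protocadherin, FAT or CELSR 0 had a peak (0 to 3.63%), and of the 24 matched as ADAMTS also 0 (0 to 13.8%). Both intervals include the share of all protein-coding genes. Families were matched by the start of the symbol. Their counts can thus include genes that share only that start, and leave out integrin alpha chains with a letter other than V after ITGA. THBS1 (a matrix glycoprotein), FBN2 (a fibrillin) and NOTCH2 (a cell surface receptor) carried 1 peak each. A gene without a peak is one for which the list analysed here holds no bin past the peak caller's limit. The read value of a peak is the mean number of reads per 200-nt bin over its bins, and the lowest value in the list was 6. RNA that the cells do not make and RNA that PQBP1 does not touch cannot be told apart in this way. Of the markers of epithelial and ovarian carcinoma cells, KRT7 (5 peaks) and KRT8 (2 peaks) had peaks and KRT18, KRT19, EPCAM, PAX8, WT1 and MUC16 had 0, while the mesenchymal marker VIM had 5. The leukocyte marker PTPRC, the endothelial markers PECAM1 and VWF and the erythroid marker HBB had 0 peaks.

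Collagens held the most peaks, 41 on 6 genes, followed by laminins with 35 on 4 genes, the group of AGRN, FN1 and HSPG2 with 19, and integrins with 11 on 3 genes. LAMA5 had 23 peaks, AGRN 14, COL1A1 and COL1A2 11 each, ITGA3 9, COL6A1 8, LAMB3 7, COL6A2 and COL3A1 5 each, and LAMB2 and FN1 4 each. The other 8 genes, HSPG2, FBN2, NOTCH2, ITGA5, ITGB1, THBS1, LAMB1 and COL11A1, had 1 peak each. Thus 11 of the 19 genes (57.9%, 36.3 to 76.9) had 2 peaks or more, beside 231 of the 699 other genes (33.0%, 29.7 to 36.6), and 9 of the 19 had 5 or more, beside 57 of 699. The median was 4 peaks per gene here and 1 in the other genes. The 699 other genes were of any RNA type, with intergenic peaks counted. Of them, 596 had peaks assigned to mRNA and not intergenic, so the sets compared are not alike. The families were also chosen with earlier results of these data known. Of the single peaks in the 8 genes, those of HSPG2 (12 reads), FBN2 and NOTCH2 (11 each), ITGB1 and THBS1 (10 each) and LAMB1 (8) were in exons. Those of ITGA5 (10) and COL11A1 (6) were in 3′ UTRs. NOTCH2 has near-identical partial copies in the genome, and how reads were divided between them is not known.

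**Figure D1:**
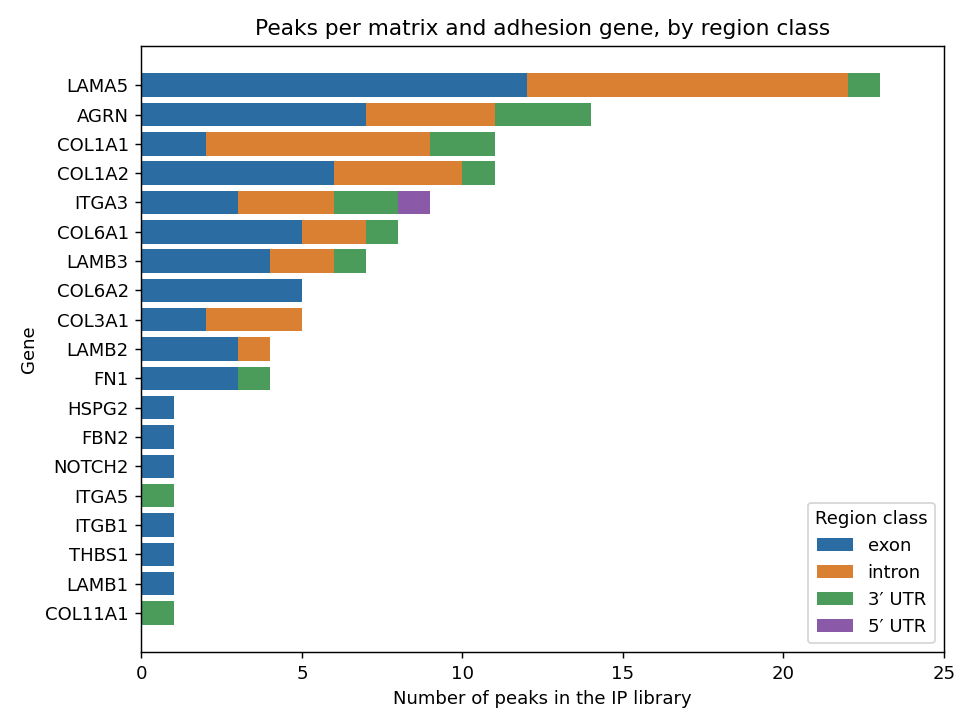
Number of peaks in the IP library (x axis) for each of the 19 matrix and adhesion genes (y axis), with the bar divided by region class. LAMA5 stands at 23 peaks, 11 genes have 4 or more and 8 genes have 1. COL1A1 is the gene in which intron peaks (7) most outnumber exon peaks (2).

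Set against the length of spliced RNA, though not of the whole gene, the 7 genes with the most peaks lay close together. They were picked by the number of peaks, which itself enters the density, and the other genes lay lower. Counting all peaks of a gene and using the canonical transcript model of GENCODE release 44, matched by gene name, LAMA5 had 2.01 peaks per kb of exon, AGRN 1.91, COL1A1 1.86, COL1A2 2.17, ITGA3 1.84, COL6A1 1.90 and LAMB3 1.74. These 7 genes differ in exonic length from 4.01 kb (LAMB3) to 11.4 kb (LAMA5), and in number of peaks from 7 to 23. Intron peaks are counted here over exonic length. Per 10 kb of transcribed length, introns included, the same genes ranged from 1.86 peaks (LAMB3) to 6.27 (COL1A1), with 3.95 in LAMA5. COL6A2 followed with 1.45 peaks per kb of exon, COL3A1 with 0.911, LAMB2 with 0.703 and FN1 with 0.477. The 8 genes with 1 peak lay between 0.0697 (HSPG2) and 0.268 (ITGB1). HSPG2, which encodes perlecan, has 14.3 kb of exon, more than LAMA5, and had 1 peak of 12 reads in an exon. LAMA5 thus had the most peaks but not the highest density per kb of exon, and the longest spliced RNA had the lowest density. With 1 library these densities have no replicate error.

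In the 109 peaks the lowest value was 6 reads per bin, the median 12 (quartiles 9 and 14.75) and the highest 45. Other peaks assigned to mRNA and not intergenic had a median of 11 (quartiles 8 and 14, 1213 peaks) and reached 200. The 109 peaks were 7.32% of the peaks in the list and held 1900 reads, 4.76% of the reads in peaks. Of the 109, 81 had at least 10 reads per bin (74.3%, 65.4 to 81.6), and over the whole list the share was 67.4%. A p-value at or below 0.001 was given to 69 of the 109 (63.3%, 53.9 to 71.8), beside 58.6% of the whole list. At 1e-05 it was 37 of 109 (33.9%, 25.7 to 43.2), beside 35.5%. The peak caller's p-value did not follow the read value alone. Peaks of 14 reads in 1 bin had p-values from 8.43e-11 (COL1A2) to 0.000477 (AGRN). In read value and p-value the matrix and adhesion RNAs were thus near the bulk of the list. They stood apart from it more in the number of peaks per gene. There the other genes were not limited to mRNA, and the families were chosen with earlier results known. Peaks of 2 bins or more made up 26 of 109 (23.9%, 16.8 to 32.7), beside 15.1% of the whole list.

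**Figure D2:**
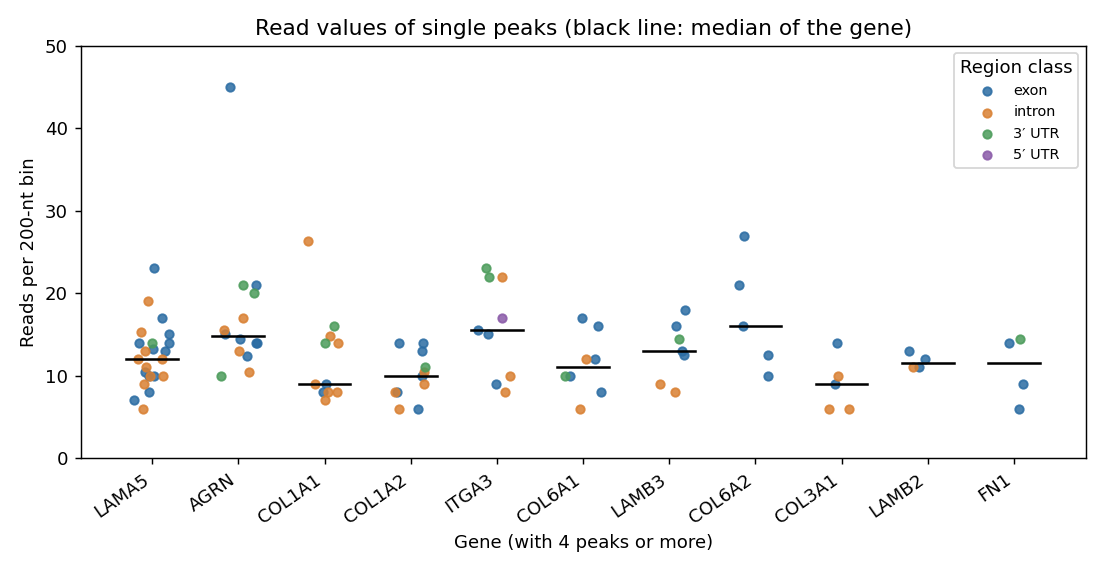
Reads per 200-nt bin (y axis) of each peak in the 11 genes with 4 peaks or more (x axis), coloured by region class, with the median of the gene as a black line. Medians run from 9 (COL1A1 and COL3A1) to 16 (COL6A2), and the AGRN exon peak of 45 reads is the highest value.

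Exons held 58 of the 109 peaks (53.2%, Wilson 95% interval 43.9 to 62.3), introns 36 (33.0%, 24.9 to 42.3), 3′ UTRs 14 (12.8%, 7.81 to 20.4) and a 5′ UTR 1. In the 1213 other mRNA peaks, exons held 63.4% (60.6 to 66.1), introns 29.1% (26.6 to 31.7) and 3′ UTRs 5.44% (4.30 to 6.86). The intervals of the 3′ UTR shares did not overlap, while those of exons and introns did. The absence of overlap rested on AGRN, without which the 3′ UTR share was 11.6% (6.59 to 19.6) and its interval reached that of the other mRNA peaks. Without LAMA5 the share was 15.1% (9.05 to 24.2) and without the collagens 13.2% (7.12 to 23.3). Peaks of 1 gene share their RNA, so these intervals cover counting error only and are narrower than intervals over independent genes would be.

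**Figure D3:**
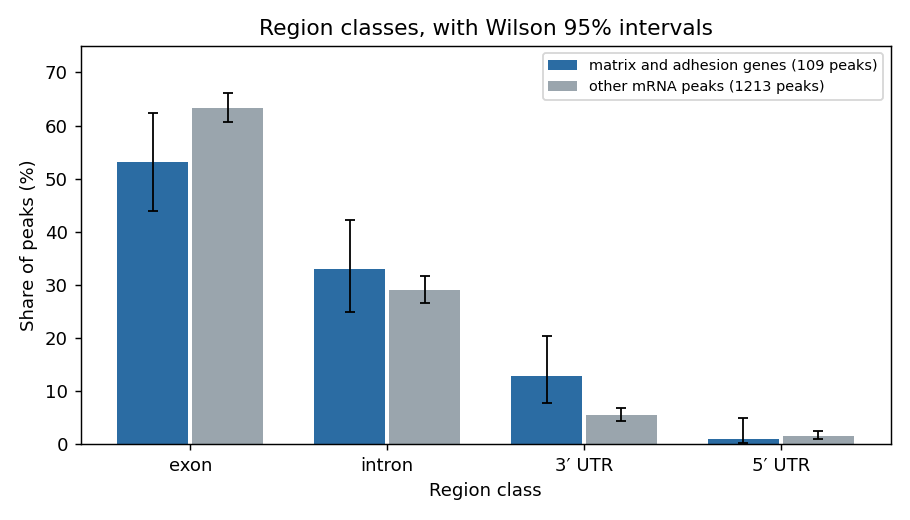
Share of peaks (y axis, percent) in exons, introns, 3′ UTRs and 5′ UTRs (x axis) for the 109 peaks of matrix and adhesion genes and for 1213 other mRNA peaks, with Wilson 95% intervals. The 3′ UTR bars stand at 12.8% and 5.44%, with intervals that do not overlap as long as AGRN is kept, and the exon bars at 53.2% and 63.4%, with intervals that do.

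The 14 peaks in 3′ UTRs were spread over 10 genes. AGRN had 3, COL1A1 and ITGA3 2 each, and LAMA5, LAMB3, COL1A2, COL6A1, COL11A1, FN1 and ITGA5 1 each. Among genes with 4 peaks or more, 8 of 11 had a 3′ UTR peak, beside 21 of 81 among the other genes. These 81 were not limited to mRNA, and a noncoding RNA has no 3′ UTR, so the shares are not like for like. The values of the 14 peaks ran from 6 (COL11A1) to 23 reads per bin (ITGA3) with a median of 14.25, while 3′ UTR peaks of all other genes had a median of 12 (66 peaks). The median was 12.75 in the 58 exon peaks and 10 in the 36 intron peaks of the matrix and adhesion genes. For ITGA5, the alpha chain of a fibronectin receptor, and for COL11A1 the 3′ UTR peak was the single peak of the gene.

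LAMA5 encodes the alpha 5 chain of laminin, which is the alpha chain of several basement membranes and is bound by the integrin that ITGA3 and ITGB1 form. Its 23 peaks lay on chromosome 20 between 60884201 and 60927200, a stretch of 43 kb, all on transcript NM_005560.4. Positions are those of the list, whose build is not GRCh38 and was not converted. The gene is on the minus strand, so the lowest position is nearest to the 3′ end of the RNA. Genes are annotated on the opposite strand of the locus, and reads from them cannot be told apart from LAMA5 reads. Of the 23, 12 were in exons (52.2%, 33.0 to 70.8), 10 in introns (43.5%, 25.6 to 63.2) and 1 in the 3′ UTR. The peaks held 367 reads in all, with values from 6 to 23 reads per bin and a median of 12.

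In order of position, a first run of 9 peaks covered 9.6 kb. It opened with the 3′ UTR peak of 14 reads at 60884201 to 60884400, an intron peak of 11 reads at 60885801, and an exon peak 800 nt wide at 60886401 with 13.25 reads per bin. An intron peak of 10 reads followed at 60888601, and exon peaks of 14 reads each lay 200 nt apart at 60889601 and 60890001. The run closed with intron peaks of 13 and 10 reads at 60891601 and 60892601 and an exon peak of 15 reads at 60893601. Exon and intron peaks were thus interspersed along the run, with 4 of each, and the values of the run differed by 5 reads per bin at most. An intron peak of 12 reads stood alone at 60897201, between gaps of 3.4 and 2.2 kb.

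The next run, again of 9 peaks, covered 8.8 kb and held both of the highest LAMA5 values. It began with an intron peak of 19 reads at 60899601 (exact Poisson 95% interval 11.4 to 29.7). Exon peaks of 10.5, 10, 13 and 8 reads per bin followed at 60900201, 60902201, 60902601 and 60903401. Then came the highest LAMA5 peak, an exon peak of 23 reads at 60904801 (14.6 to 34.5). The intron peak and the exon peak with the highest values each had the p-value 5.19e-12, the smallest in the list. The run ended in introns, with a 600-nt peak of 15.3 reads per bin at 60905401, the lowest LAMA5 value of 6 reads at 60907201, and 12 reads at 60908201.

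Toward the 5′ end the peaks thinned out. Exon peaks of 7 and 17 reads stood at 60911401 and 60912601, an intron peak of 9 reads at 60921201 after a gap of 8.4 kb, and an exon peak of 10 reads at 60927001 after a further 5.6 kb. The gap between neighbouring peaks had a median of 1100 nt and was at most 1000 nt in 11 of 22 cases. Of the 23 peaks, 21 lay within 28.6 kb at the 3′ side. In the gene model, the 28.6 kb nearest to the 3′ end are 49.1% of the transcribed length and hold 64 of the 80 exons (80%), beside 91.3% of the peaks. That length was set by the peaks, since it ends at the peak before the 8.4 kb gap. The share of peaks is therefore high by choice and cannot be ranked against that of exons. The exons of the model were thus gathered toward the 3′ end. For the peaks this window cannot show it, and they were not placed on the model itself.

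Read values of LAMA5 exon peaks lay between 7 and 23 around a median of 13.1 per bin, and those of its intron peaks between 6 and 19 around 11.5, so both classes overlapped over most of their range. The counting interval of 22 of the 23 peaks included the gene's median of 12, the exception being the exon peak of 23 reads. A p-value at or below 1e-05 was given to 11 of the 23 peaks, 6 in exons, 4 in introns and the one in the 3′ UTR. A p-value at or below 0.001 was given to 18. The LAMA5 shares, 47.8% (29.2 to 67.0) and 78.3% (58.1 to 90.3), have intervals that include the 35.5% and 58.6% of the whole list. The median intron of the LAMA5 model is 162 nt and 46 of its 79 introns are shorter than 1 bin, while 73 of its 80 exons are shorter than 1 bin. A 200-nt bin can therefore cover an exon with parts of both introns beside it, and the class given to such a bin depends on the annotation step. The 800-nt exon peak was wider than the longest exon of the model (411 nt), so it cannot lie within 1 exon.

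**Figure D4:**
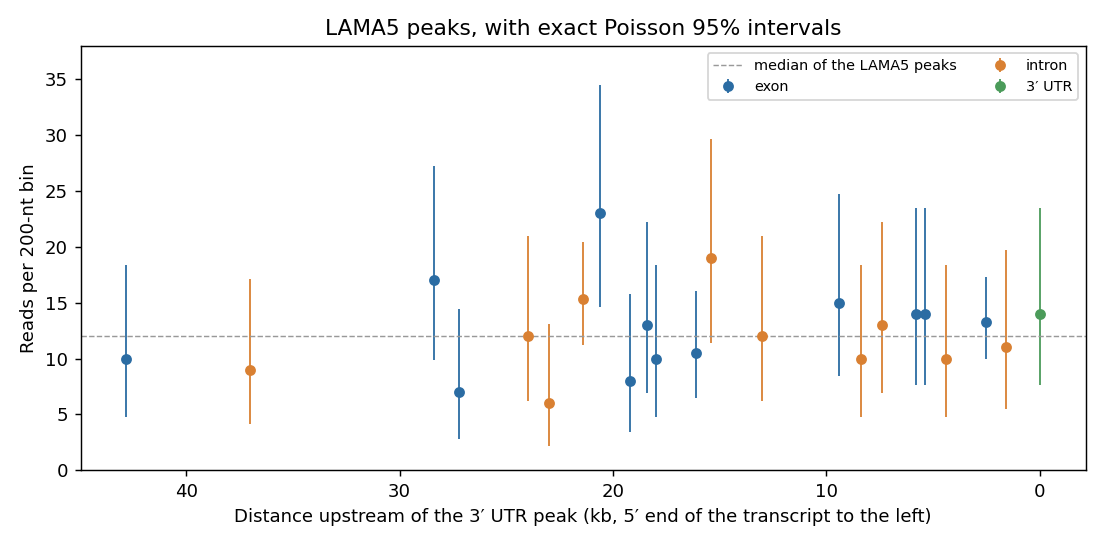
Reads per 200-nt bin (y axis) of the 23 LAMA5 peaks with exact Poisson 95% intervals, against the distance of the peak's middle from the 3′ UTR peak in kb (x axis, 5′ end to the left), coloured by region class. Exon and intron peaks are interspersed, 21 peaks lie within 30 kb of the 3′ UTR peak, and 1 interval, that of the exon peak of 23 reads, does not reach the median of 12 (dashed line).

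The beta chains that can join the alpha 5 chain had fewer peaks. LAMB2 had 4 within 3.6 kb on chromosome 3, with 13, 11 and 12 reads per bin in exons and 11 in an intron. LAMB1 had 1 exon peak of 8 reads. LAMB3, a beta chain of the laminin of skin and other epithelia, had 7 peaks on chromosome 1, of which 4 were in exons (12.5 to 18 reads per bin), 2 in introns (8 and 9) and 1 in the 3′ UTR (14.5). The beta chain genes thus had 3 of their 4 members in the list (30.1 to 95.4%), whereas 0 of 3 gamma chain genes had a peak (0 to 56.1%). LAMA3 and LAMA4 had 0 peaks as well. The beta and gamma intervals overlap, and the gamma interval includes the 3.25% of all protein-coding genes. With so few genes, unequal representation of the chains of 1 trimer was not shown.

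AGRN, which encodes agrin, a proteoglycan of basement membranes and of the nerve-muscle synapse, held the highest single value of the 109. This was an exon peak at 983401 to 983600 of chromosome 1, where a single bin counted 45 reads (32.8 to 60.2). Its p-value was 5.19e-12, and 29 peaks of the list were higher. The other 6 AGRN exon peaks had 14, 21, 12.3, 14.5, 15 and 14 reads per bin in 5′ to 3′ order. Of the 4 intron peaks, those with 13, 15.5 and 17 reads per bin lay among them. The intron peak of 10.5 reads per bin lay downstream of the exon peaks and before those of the 3′ UTR. None of the intervals of the other 13 AGRN peaks reached 45. The 3 AGRN peaks of the 3′ UTR had 21, 20 and 10 reads per bin. All 14 peaks fell within 15.4 kb, or 42.8% of the length of the gene, which has 21 of its 35 introns under 200 nt.

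ITGA3, the alpha chain of a laminin receptor, had peaks along nearly its whole length, 34.2 kb or 99.5% of the gene. Its peak in the 5′ UTR, on chromosome 17 from 48133401 to 48133800, had 17 reads per bin (11.8 to 23.8) and was the only 5′ UTR peak of the 109. An exon peak of 9 reads stood alone downstream of it. A middle group held intron peaks of 22, 8 and 10 reads and exon peaks of 15 and 15.5 reads per bin. At the 3′ end, 2 UTR peaks of 22 and 23 reads per bin (intervals 13.8 to 33.3 and 16.8 to 30.7) lay 200 nt apart. Its median of 15.5 was above that of LAMA5, but the values of both genes overlapped. ITGB1, the beta chain shared by many integrins, had 1 exon peak of 10 reads. ITGA6 and ITGB4, which together form another laminin receptor, and the alpha chain ITGAV had 0 peaks.

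Fibrillar collagens are trimers wound into a triple helix in which glycine recurs at a spacing of 3 residues, and COL1A1 with COL1A2 encodes type I collagen. Their helix is encoded by short exons whose lengths are built on a unit of 9 nt. Exons of exactly 54 nt number 21 of 51 in the COL1A1 model, 24 of 52 in COL1A2 and 24 of 51 in COL3A1. The first such exon with glycine codons at this spacing is printed for each gene to show how small an exon is against a 200-nt bin, from GENCODE release 44 by transcript name, 5′ to 3′ in the sense of the RNA, with the 6 glycine codons in capitals. Whether a peak lies on these very exons was not determined.
COL1A1 exon 8: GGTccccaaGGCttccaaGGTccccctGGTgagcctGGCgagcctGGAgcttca
COL1A2 exon 8: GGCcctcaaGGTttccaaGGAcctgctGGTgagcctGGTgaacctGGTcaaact
COL3A1 exon 6: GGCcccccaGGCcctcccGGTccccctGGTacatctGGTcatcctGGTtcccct

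On COL1A1 7 of the 11 peaks were classed as intron, 2 as exon and 2 as 3′ UTR. The highest was a peak of 600 nt classed as intron, on chromosome 17 from 48262801 to 48263400. It had 26.3 reads per bin (20.8 to 32.8) and 79 reads in all, the most of any peak of the 19 genes. A peak of 800 nt next to it, from 48263601 to 48264400 and also classed as intron, had 14.75 reads per bin. The 3′ UTR peaks on the other side of the highest peak had 14 and 16. The 7 remaining peaks had 7 to 14 reads. These 4 peaks at the 3′ end thus lay at the top of the gene's range, together with 1 intron peak of 14 reads at 48266801. In the COL1A1 model 33 of 50 introns are shorter than 200 nt, 3 reach 600 nt and 2 reach 800 nt, so few introns could hold either wide peak whole. Likewise 47 of its 51 exons are under 200 nt, while the last exon is 1548 nt long. The peaks were not placed on the model, so the exon sequence within the wide peaks was not determined.

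COL1A2, by contrast, had 6 exon, 4 intron and 1 3′ UTR peaks, with values from 6 to 14 reads per bin. Its exon peaks had 8, 14, 6, 10, 14 and 13 reads per bin in 5′ to 3′ order, its intron peaks 6, 8, 10.5 and 9, and its 3′ UTR peak 11. Its 11 peaks spanned 10.4 kb, 28.6% of the gene, and the 3′ part of the model of that length holds 15 of 52 exons. COL3A1, the chain of type III collagen, had exon peaks of 14 and 9 reads and intron peaks of 10, 6 and 6 reads. Over all collagens, introns held 16 of 41 peaks (39.0%, 25.7 to 54.3) and exons 20 (48.8%, 34.3 to 63.5). The median was 8.5 reads per bin in collagen intron peaks and 12.25 in collagen exon peaks. Collagen peaks passed the limits as follows, with 18 of 41 at a p-value of 0.001 or lower (43.9%, 29.9 to 59.0, beside 58.6%) and 24 of 41 at 10 reads per bin or more. Among laminin peaks these were 27 of 35 (77.1%, 61.0 to 87.9) and 28 of 35. The intervals of the collagen and the laminin share did not overlap at the p-value of 0.001. They did at 10 reads per bin, where both included the 67.4% of the whole list, and at 1e-05, where 14 of 41 collagen and 13 of 35 laminin peaks passed. LAMA5 gave 18 of the 27 laminin peaks, and the other laminins, with 9 of 12 at 0.001 (interval 46.8 to 91.1%), overlapped the collagens.

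COL6A1 and COL6A2 encode 2 chains of type VI collagen, a beaded filament at the border of the basement membrane, and are neighbours on chromosome 21. All 5 COL6A2 peaks were in exons, with 27, 12.5, 21, 10 and 16 reads per bin in 5′ to 3′ order. The first of them, from 47532201 to 47532400, had the second highest value of the 109 peaks (17.8 to 39.3, p-value 5.40e-12). COL6A1 had 5 exon peaks from 8 to 17 reads per bin, intron peaks of 6 and 12, and a 3′ UTR peak of 10. Of its 8 peaks, the last 5 lay within 2.6 kb of each other, measured between the middles of peaks. COL6A3, a further chain of this collagen, had 0 peaks, as did COL4A1 and COL4A2, the collagen chains common to basement membranes.

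FN1 encodes fibronectin, the ligand of several integrins. Its 4 peaks had 14.5 reads per bin in the 3′ UTR and 6, 14 and 9 reads in exons, with 0 in introns. They spanned 9.4 kb, or 12.5% of the gene, although the RefSeq gene is 75.2 kb long. The 9.4 kb at the 3′ end of the model hold 5 of the 46 exons, so the peaks were gathered toward the 3′ end, and their span was the smallest share of gene length among the 11 genes with 4 peaks or more. Over those 11 genes the span from the first to the last peak had a median of 53.8% of gene length (quartiles 36.5 and 72.8). In 81 other genes with 4 peaks or more, not limited to mRNA, it was 49.2% (26.8 and 73.0).

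**Figure D5:**
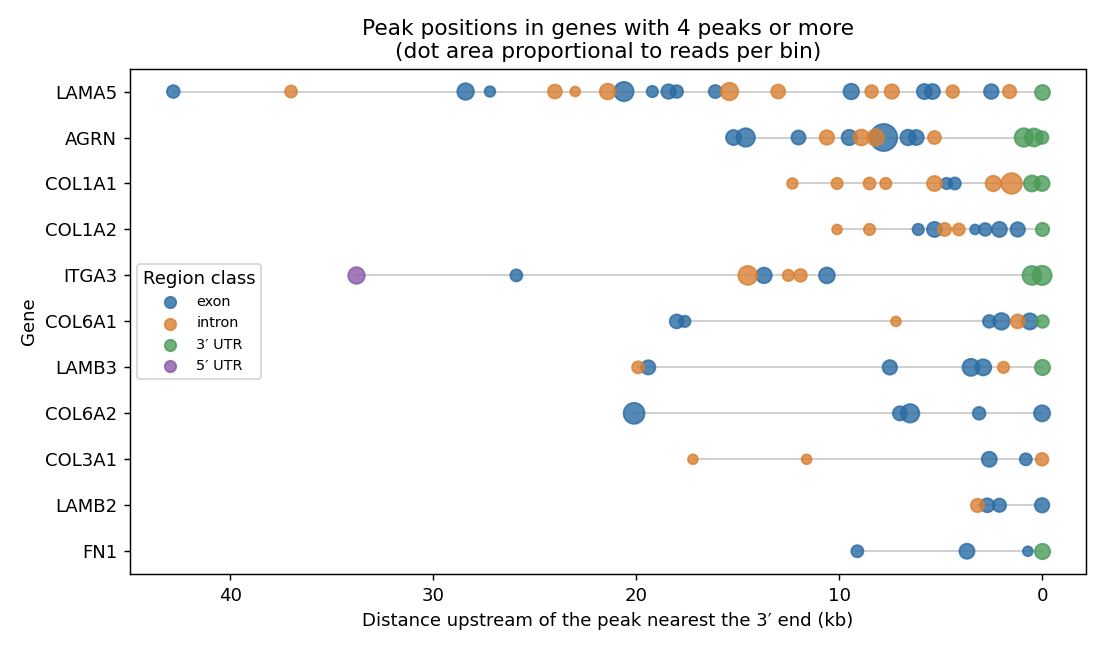
Position of each peak in the 11 genes with 4 peaks or more (y axis), as the distance of its middle from the peak nearest the 3′ end in kb (x axis, 5′ end to the left), coloured by region class, with dot area proportional to reads per bin. ITGA3 peaks reach from the 5′ UTR to the 3′ UTR, while those of FN1, COL1A2 and LAMB2 lie within 11 kb.

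Peaks also occurred on genes that assemble the matrix or link adhesions to the cell skeleton. Of 30 such genes outside the families, 9 had a peak, beside 652 of 20056 (3.25%) of all protein-coding genes. The 30 were picked by hand with earlier results of these data known, so the shares are not like for like. They had 21 peaks in all, 8 in exons, 8 in introns, 4 in 3′ UTRs and 1 in a 5′ UTR, with a median of 11 reads per bin. PXN, the scaffold protein paxillin of focal adhesions, had 7 peaks from 7 to 23.5 reads per bin, 4 of them in introns. SPARC, a collagen-binding protein, had 4 peaks from 8 to 15.7 reads per bin, and 2 were in its 3′ UTR. P4HB, a subunit of the enzyme that hydroxylates collagen, had 3 peaks and TLN1 (talin, which binds integrin tails) 2. MMP14, a membrane protease that cuts collagen, had 1 peak of 26 reads in its 5′ UTR. LOXL2, PXDN, PTK2 and CTNND1 had 1 peak each. The other 21 genes, among them the collagen chaperone SERPINH1, VCL and CTNNB1, had 0.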

How the data were processed

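Reads of the IP library were trimmed with Trimmomatic, cleared of ribosomal RNA, aligned with TopHat2 (2.0.13 per the labels), called with Piranha and annotated with HOMER by the authors. They deposited a coverage signal per peak, read here as the mean reads per 200-nt bin and not scaled to depth, since it multiplied by the number of bins was whole (within 0.01) in all 1489 peaks. The authors deposited a p-value per peak whose adjustment, and the use of Input in it, are not stated. Total depth is unknown, and 39952 reads lay in peaks. The sources name hg38, yet 0 of the 109 peaks overlapped their gene on GRCh38, so gene models were used by name, for lengths alone (19 of 19 genes matched). The strand was that of the gene model in all 109 peaks. It was not measured from the reads, so transcription from the opposite strand, where 11 of the 19 genes have an annotated gene, cannot be told apart. Families, gene lists and limits were chosen with earlier results of these data known. Named in full were LAMA5, the 10 genes with the most peaks, the 5 highest peaks and the top gene of each family. With 1 library no test was made. Shares carry Wilson and read values exact Poisson 95% intervals (scipy 1.17.1), which cover counting error only, since reads that carry no molecular identifier may be copies of 1 molecule. The summaries were tested on simulated data.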

Additional observations from a re-analysis of the deposited data

How the results depend on the processing

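The number of peaks fell from 109 to 69 at a p-value limit of 0.001 and to 37 at 1e-05, and that of genes from 19 to 11 at 1e-05. Counting genes with 2 peaks or more also gave 11. LAMA5 went from 23 to 11 peaks at 1e-05. These falls follow from the limits themselves. The exon share of 53.2% was 64.1% as a mean over genes, in which genes with 1 peak weigh as much as LAMA5, and 67.0% with UTR and stop codon classes added. In 5 other settings it stayed within its interval. The median of 12 reads per bin rose to 15.3 at 1e-05. The 3′ UTR share stayed between 11.6% and 18.9% in 7 settings chosen after seeing the data, while in the other mRNA peaks it was 4.61% to 7.12% at the 3 limits on p-value and reads. The intervals of both sets overlapped without AGRN (6.59 to 19.6 and 4.30 to 6.86) and touched at a p-value limit of 0.001 (both at 8.07), and did not at the other limits or with any other single gene left out. The exon share of LAMA5 lay between 50% and 55.9% in 3 settings. No paired analysis was possible because Input and IP have 1 library each. A peak of 6 reads, of which there were 8 in 6 of the genes, has an interval of 2.20 to 13.1 reads. That interval includes the median of 12, so peaks of low value cannot be ranked by their reads.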

Other observations

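The transcript named for a peak went with its region class in 2 of the genes. In AGRN the 10 exon and 3′ UTR peaks were given to NM_001305275.1 and the 4 intron peaks to NM_198576.3. In LAMB3 the 5 exon and 3′ UTR peaks were given to NM_001017402.1 and the 2 intron peaks to NM_001127641.1. Of the 9 matrix and adhesion genes with both exon and intron peaks, these were the ones in which more than 1 transcript was named. In the other genes of the list, 113 had both classes, 62 of them had more than 1 transcript, and in 54 of these 62 no transcript was shared between the exon and the intron peaks. The transcript of a peak therefore cannot be read as the isoform that was bound.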
